A study of Rattus norvegicus with 14 samples.

Results

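Hspbp1 and the Hsp70 genes were described from every probe whose symbol in the platform annotation starts with Hspbp, Hspa or Hsph followed by a digit, with Hspa5 left aside. These were 8 of 4952 probes, for 7 genes, Hspbp1, Hspa1a (2 probes), Hspa1b, Hspa4, Hspa8, Hspa9 and Hspa13. Hspbp1 itself was chosen by its ratio at 20 min, which stood apart from the self-self arrays and from 4 h, so its values in those comparisons are a description and carry no test here. The other 6 genes were taken by symbol. The RNA came from small intestine of rats aged 20 days that had been perfused with HG and HF. The labels do not spell these out. From what is known of the study they are sugar solutions, one rich in glucose (HG) and the other in fructose (HF). Each array had 2 colours and gave the ratio of 2 RNAs: 5 arrays compared pairs of HF and HG samples after 4 h, 1 further array (array 6) repeated pair 2 of these, 4 arrays did so after 20 min, 3 self-self arrays carried 1 RNA of 4 h perfusion in both channels (1HG, 3HG and 3HF), and 1 array carried only labelling primers. No group without perfusion was used, so a low ratio can be less RNA with HF or more with HG. The labels name no strain and do not say whether the pairs came from separate animals. The p-values therefore reflect array-to-array spread alone, and the number of arrays limits the precision.

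Hsp70 proteins are chaperones that bind unfolded stretches of other proteins and release them in a cycle driven by ATP. J-domain proteins (the Dnaj genes) bring clients and speed the hydrolysis of ATP, and nucleotide exchange factors open the cycle again by letting ADP go. HSPBP1 is such an exchange factor, and is also known in human cells to inhibit CHIP, a ubiquitin ligase that works with Hsp70. Hspa1a and Hspa1b encode the form induced by heat and other stress through heat shock factor 1, a form known in gut epithelium as a protective protein. Hspa8 encodes the constitutive form of the cytosol, Hspa9 the mitochondrial form and Hspa4 a larger relative that acts as an exchange factor. Hspa13 encodes a form associated with microsomes.

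Heat shock factor binds inverted repeats of GAA. Promoter windows from RefSeq (build GRCr8, 250 bases before to 50 after the gene's start) were at hand for 6 of the 7 genes and were searched on both strands for TTCNNGAA and GAANNTTC, each of which is its own reverse complement. They are shown for Hspbp1, for the stress-induced Hspa1a, and for the constitutive Hspa8, with matches in capitals.
Hspbp1, chr1:78194168-78194467, plus strand: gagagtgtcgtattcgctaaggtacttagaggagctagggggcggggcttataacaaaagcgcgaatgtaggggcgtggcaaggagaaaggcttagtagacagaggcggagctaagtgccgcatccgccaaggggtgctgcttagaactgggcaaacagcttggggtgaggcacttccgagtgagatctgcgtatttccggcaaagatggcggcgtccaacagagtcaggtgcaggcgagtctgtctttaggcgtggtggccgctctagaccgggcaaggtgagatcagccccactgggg
Hspa1a, chr20:3859506-3859805, plus strand: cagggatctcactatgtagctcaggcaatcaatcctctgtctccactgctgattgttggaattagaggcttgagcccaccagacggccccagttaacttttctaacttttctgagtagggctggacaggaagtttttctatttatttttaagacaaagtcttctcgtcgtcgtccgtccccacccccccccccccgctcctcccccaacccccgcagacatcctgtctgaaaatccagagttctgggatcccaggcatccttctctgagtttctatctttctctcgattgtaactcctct
Hspa8, chr8:50080264-50080563, plus strand: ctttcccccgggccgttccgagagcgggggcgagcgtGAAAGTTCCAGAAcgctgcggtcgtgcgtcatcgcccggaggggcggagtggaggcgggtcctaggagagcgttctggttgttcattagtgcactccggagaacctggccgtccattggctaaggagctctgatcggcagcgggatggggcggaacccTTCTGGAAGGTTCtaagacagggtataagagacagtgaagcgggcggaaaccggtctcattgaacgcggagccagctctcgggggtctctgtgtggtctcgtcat
The Hspa8 window held 4 matches, starting 213, 208, 55 and 50 bases before the gene's start, in 2 runs where neighbouring motifs overlap. Hspa9 held 2. The windows of Hspbp1, Hspa1a, Hspa4 and Hspa13 held 0, which says only that these letters are not in these windows. Either motif occurred in 15.9% of 33469 rat promoter windows, and at least 3 matches in 0.368%.

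Values below are log2 ratios, each array centred on its median. Base 2 is assumed, and no label gives the direction of the ratio: a positive value is probably the HF side. The basis is array 6, whose title marks the HG sample with a 5 and the HF sample with a 3 (read as dyes Cy5 and Cy3) and on which the fructose transporter gene Slc2a5 read -1.66, against 1.62 on array 2. Over all features, however, arrays 2 and 6 correlated at r = 0.41, so a swap of dyes is likely and not settled. The direction at 20 min is assumed to be that at 4 h. The SD over all probes was 0.33 to 0.40 on the 9 arrays of HF against HG, 0.82 on array 6 and 1.39 on the self-self array 1HG, which held 227 probes beyond 2. Array 6 was left out of every fit. A ratio has no level, so the tissue could not be checked against its markers, and in whole tissue fewer cells of a type and less RNA per cell cannot be told apart.

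Hspbp1 had a ratio below -1 on every array at 20 min and higher ratios on every other array. At 4 h the 5 arrays gave -0.58, -0.12, -0.22, 0.04 and -0.50. At 20 min the 4 arrays gave -1.42, -1.83, -1.09 and -1.45, and the self-self arrays gave -0.10, 0.18 and -0.25. No array at 20 min overlapped with an array at 4 h or with a self-self array, whereas the arrays at 4 h overlapped with the self-self arrays.

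The mean ratio of Hspbp1 was -0.28 ± 0.26 (SD, 5 arrays) at 4 h, -1.45 ± 0.30 (4 arrays) at 20 min and, where 1 RNA filled both channels, -0.06 ± 0.22 (3 arrays). The mean at 20 min is a 2.73-fold lower signal on the HF side. The ratio at 20 min lay -1.39 ± 0.19 (SE) from the self-self mean, that at 4 h lay 1.17 ± 0.17 above that at 20 min, and that at 4 h lay -0.22 ± 0.18 from the self-self mean. In order from low to high the means ran 20 min, 4 h and self-self, and the last pair did not differ beyond its spread. Hspbp1 was among the 2 of 4682 features (0.0427%) called at 20 min and the 28 (0.598%) called between the times in limma's test. That is what chose it, and nothing further is read from it. The call at 20 min was lost without 20 min replicate 1, 2 or 4 or without 3HG, with arrays scaled to 1 spread, and in 3 other settings given at the end. The call between the times was lost without 20 min replicate 2 or 4 and with array 6 averaged in as deposited. Groups did not overlap in 7.01% of all features at 20 min against self-self and in 6.54% between the times.

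The gene was measured by 1 probe, so no second probe could be set beside it. Array 6 gave -0.69 for Hspbp1, and array 2 of the same pair gave -0.12. The value on array 2 lies within the self-self range of Hspbp1 (-0.25 to 0.18), and that on array 6 lies below it. Nothing is therefore read from the equal sign, whether or not the dyes were swapped on array 6. The array with labelling primers gave 0.21. Without any 1 array the difference at 20 min ranged from -1.51 to -1.26 and that between the times from 1.05 to 1.29.

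**Figure D1:**
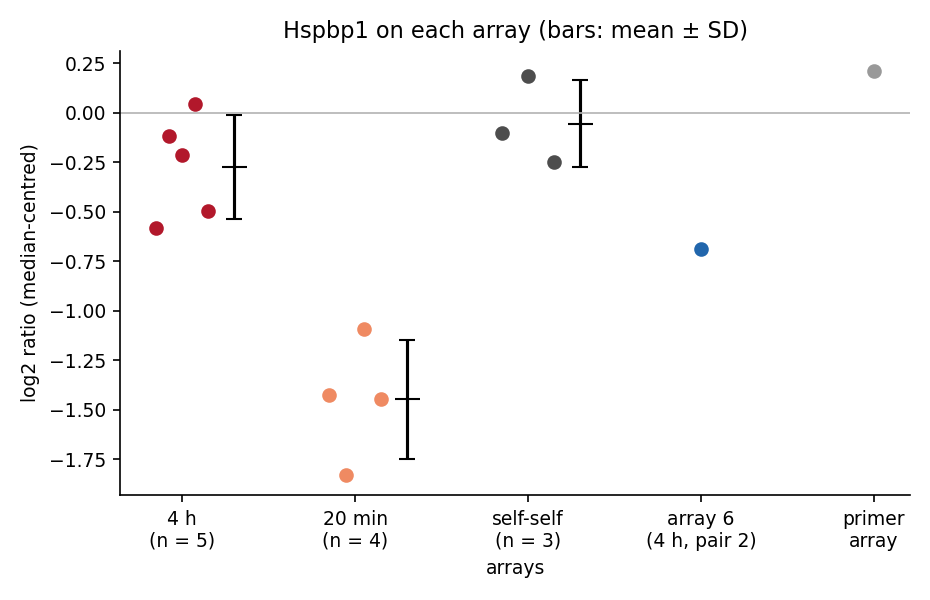
Hspbp1 on every array, as log2 ratio centred on the array's median. Points are single arrays at 4 h, at 20 min, self-self, array 6 and the primer array, and bars give mean ± SD. The 4 arrays at 20 min lie between -1.83 and -1.09, below all others.

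None of the other 6 genes was called in any of the 3 comparisons by limma's test with Benjamini-Hochberg adjustment over 4682 features, and 0 of 6 had an unadjusted p below 0.05 in each. Over all features 0.598% were called between the times, 0.0427% at 20 min and 0.0641% at 4 h, and 13.5%, 5.21% and 9.97% had an unadjusted p below 0.05, so calls among 6 genes would be rare on this background. The groups overlapped in all 6 genes in each comparison, where 6.71% of all features did not overlap at 4 h against self-self. Their adjusted p lay between 0.417 and 0.932 for 4 h against 20 min, between 0.927 and 0.992 for 20 min against self-self, and between 0.514 and 0.854 for 4 h against self-self. The median difference of the 6 was -0.07, -0.07 and -0.24 in these comparisons, beside -0.01, 0.00 and -0.01 over all features. In each comparison 2 of the 6 lay above 0 and 4 below. The comparisons share arrays, so these are not independent counts.

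How closely the arrays bounded a difference varied between the genes. Hspa4, the exchange factor of the Hsp110 type, was the steadiest. Its 5 ratios at 4 h were -0.12, -0.05, 0.07, -0.14 and 0.00, its 4 at 20 min -0.11, -0.14, -0.05 and -0.21, and its 3 self-self ratios -0.18, -0.08 and -0.05. All 3 groups lay within the same narrow band. At 20 min the difference from self-self was -0.02 with a 95% interval from -0.22 to 0.17, and between the times it was 0.08, from -0.09 to 0.25.

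Hspa9, the mitochondrial form that helps to import proteins, had ratios of 0.01, 0.25, 0.17, 0.08 and 0.07 at 4 h, against 0.19, -0.19, -0.16 and -0.18 at 20 min. All 5 arrays at 4 h were above 0 and 3 of 4 at 20 min below. The first array at 20 min lay within the range at 4 h. The difference between the times was 0.20 ± 0.10 (SE; limma adjusted p = 0.417), with an interval from -0.02 to 0.42, and was 0.29 without that array.

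Hspa8, the constitutive form, had ratios of 0.31, -0.06, -0.43, 0.06 and -0.19 at 4 h, 0.10, 0.05, 0.13 and -0.13 at 20 min, and 0.33, 0.32 and -0.02 on the self-self arrays. Its highest ratios stood on self-self arrays, which hold the same RNA in both channels. The difference of 4 h from self-self was -0.27 (interval -0.61 to 0.07). Between the times it was -0.10 (-0.41 to 0.21).

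Hspa13, the microsomal form, gave 0.04, 0.06, -0.52, 0.00 and -0.12 at 4 h, -0.14, -0.08, 0.13 and -0.15 at 20 min and 0.10, 0.14 and 0.05 on the self-self arrays. One array at 4 h, the third, stood below the others. The difference between the times was -0.05 (-0.31 to 0.22), and turned to 0.06 without that array.

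**Figure D2:**
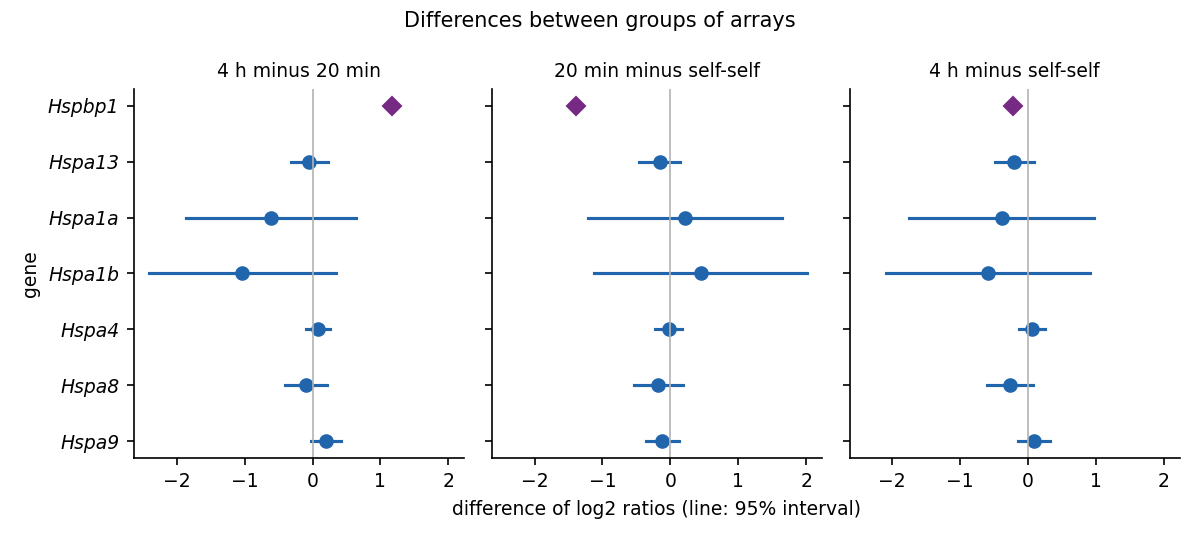
Differences of mean log2 ratio between groups of arrays for the 7 genes, with 95% intervals from the limma fit of 12 arrays as lines. Hspbp1 (diamond) is drawn with no interval because it was chosen for these differences. Intervals of Hspa4, Hspa8, Hspa9 and Hspa13 are short, those of Hspa1a and Hspa1b run over more than 2 log2 units, and all of them cross 0.

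The stress-induced genes Hspa1a and Hspa1b swung from array to array at both times. The first probe of Hspa1a gave 0.93, 0.73, -0.92, -0.18 and -2.06 at 4 h, against 0.39, 0.62, 1.38 and -1.25 at 20 min. On the self-self arrays it gave -0.14, 0.37 and -0.20. Pairs 1 and 2 at 4 h and pairs 1 to 3 at 20 min had positive ratios, probably the HF side, and the other pairs negative ones. The -0.18 of pair 4 at 4 h lay within the self-self range of this probe, so it is placed on neither side.

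The second probe of Hspa1a repeated this order closely, with 0.35, 0.68, -0.43, -0.20 and -1.95 at 4 h, 0.27, 0.47, 1.59 and -1.06 at 20 min and 0.18, 0.11 and 0.18 on the self-self arrays. The probe of Hspa1b gave 0.87, 0.99, -0.76, -0.76 and -2.07 at 4 h, 0.95, 1.58, 1.13 and -0.92 at 20 min and 0.11, 0.08 and 0.54 on the self-self arrays. The sign was the same for all 3 probes on each of the 9 arrays of HF against HG. Over these arrays the probes of Hspa1a correlated at r = 0.97 (Spearman 0.95), and each with that of Hspa1b at r = 0.93 and 0.90 (Spearman 0.82 and 0.92). The sequences of Hspa1a and Hspa1b are nearly identical, so their probes cannot be taken as separate measurements of 2 genes.

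**Figure D3:**
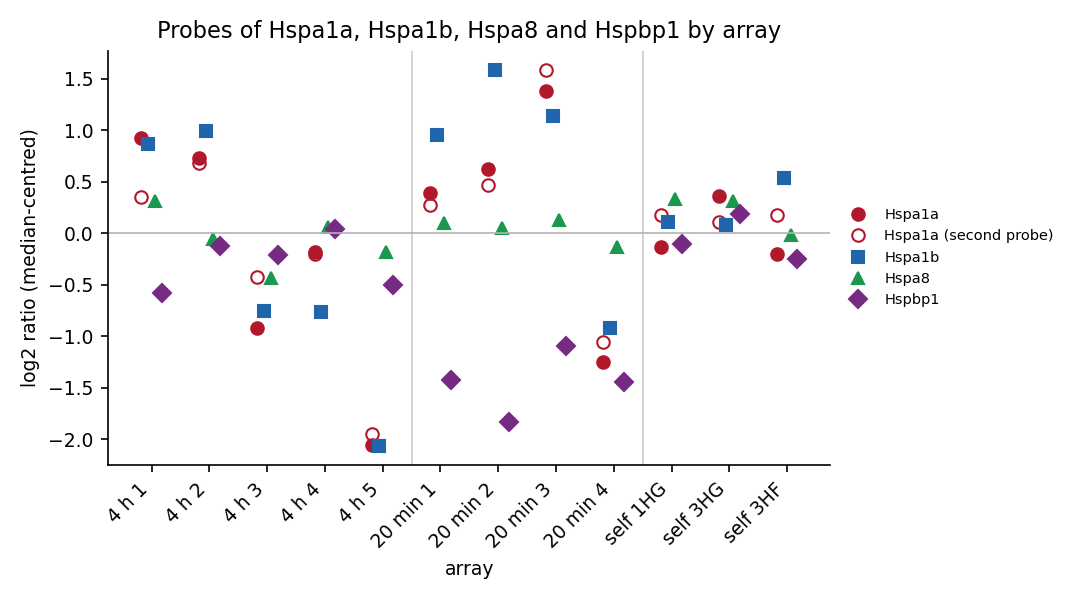
Log2 ratios, centred on each array's median, of the probes of Hspa1a (2 probes), Hspa1b, Hspa8 and Hspbp1 on the 5 arrays at 4 h, the 4 at 20 min and the 3 self-self arrays. The 3 probes of Hspa1a and Hspa1b move together, between -2.07 at 4 h replicate 5 and 1.59 at 20 min replicate 3, while Hspbp1 is low on the 4 arrays at 20 min.

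The SD of Hspa1a was 1.11 over the 5 arrays at 4 h, 1.09 over the 4 at 20 min and 0.14 over the 3 self-self arrays, and that of Hspa1b was 1.28, 1.10 and 0.25. The median SD of all features was 0.20, 0.17 and 0.15 in these groups. Out of 4682 features, Hspa1b ranked 4 and Hspa1a 9 by SD at 4 h, and 13 and 14 at 20 min, but 1061 and 2704 on the self-self arrays. The other 5 genes ranked between 1163 and 4449 at 4 h and between 592 and 4293 at 20 min. This spread was picked out after the values had been seen and has no test. It rested in part on single arrays: without 4 h replicate 5 Hspa1a ranked 57 and Hspa1b 17 at 4 h, and without 20 min replicate 4 they ranked 55 and 475 at 20 min.

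The lowest ratio of Hspa1a, averaged over its probes, was -2.01 at 4 h replicate 5, a 4.01-fold lower signal on the HF side. The highest was 1.49 at 20 min replicate 3, a 2.80-fold higher one. With such spread the difference of Hspa1a between the times was -0.61 with an interval from -1.86 to 0.65 (limma adjusted p = 0.721), and that of Hspa1b was -1.03, from -2.41 to 0.34 (adjusted p = 0.528). Single arrays moved these values by more than 1.5 times. Without 4 h replicate 5 they were -0.18 and -0.60, and without 20 min replicate 4 they were -1.09 and -1.57. Without 20 min replicate 3 the difference of Hspa1a was -0.21. Both intervals hold 0 and also a difference of -1, so no difference between the times was detected and one of that size was not excluded. Against self-self the intervals of Hspa1a ran from -1.21 to 1.65 at 20 min and from -1.75 to 0.98 at 4 h.

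Pair 2 at 4 h was measured again on array 6. There the mean of Hspa1a and Hspa1b was -0.68, against 0.85 on array 2 and 0.06 to 0.26 on the self-self arrays. Relative to the self-self mean both genes changed sign between these arrays, as did Hspa4 and Hspa9 with smaller values, and Hspbp1, Hspa8 and Hspa13 did not. Of all features 43.7% changed sign.

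**Figure D4:**
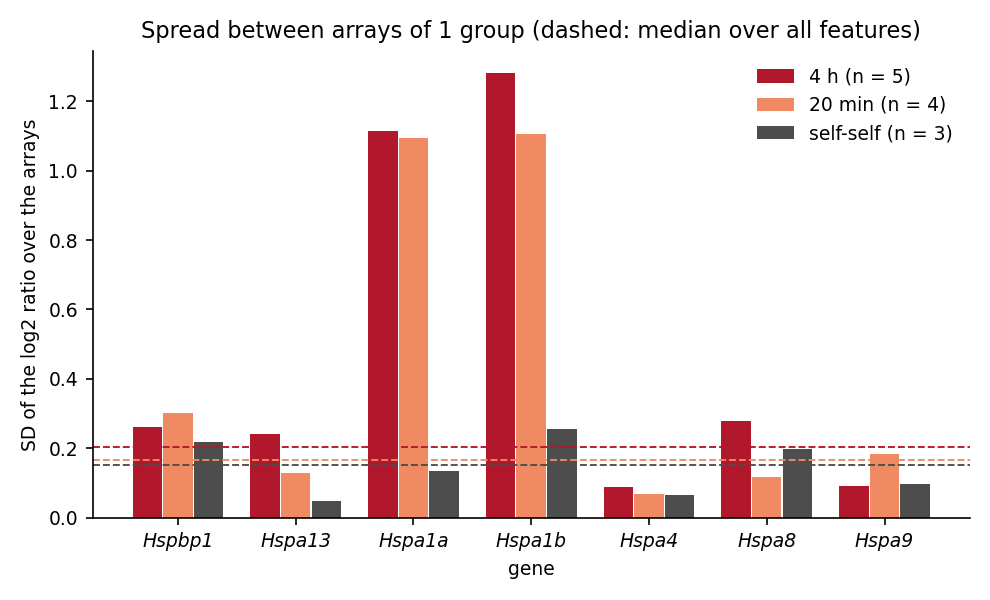
SD of the log2 ratio over the arrays of 1 group, for the 7 genes, at 4 h, at 20 min and on the self-self arrays. Dashed lines give the median SD over all 4682 features in the same group. Hspa1a and Hspa1b exceed 1.0 at both times and stay below 0.3 on the self-self arrays.

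Genes that work with Hsp70 were taken as 5 lists with 24 measured genes in all, and none of the 24 was called in any comparison. Over all features 0.598% were called between the times, 0.0427% at 20 min and 0.0641% at 4 h, so few calls could be looked for. The median difference of the 24 was 0.02 between the times, -0.05 at 20 min and 0.02 at 4 h, with 14, 8 and 13 genes above 0. Among the Hsp70 cochaperones (10 measured), Dnajc3, a J-domain protein of the endoplasmic reticulum, had the smallest p between the times, at 0.54 ± 0.12 (SE; limma adjusted p = 0.0935). Its mean was 0.49 ± 0.23 (SD, n = 5) at 4 h and -0.04 ± 0.16 (n = 4) at 20 min, and the arrays did not overlap. Dnajb9, another J-domain protein of that compartment, differed by -0.31 (adjusted p = 0.227), and Grpel1, the exchange factor that serves mitochondrial Hsp70, by 0.27 (0.386). At 20 min Bag6, which handles misfolded and membrane-bound clients, lay at -0.54 from self-self (limma adjusted p = 0.801, and -0.29 without the self-self array 3HF). Its arrays overlapped. Dnajb9 lay higher, at 0.34 (limma adjusted p = 0.801), with no overlap, as in 7.01% of all features. At 4 h Dnajc3 lay at 0.38 and Dnaja2 at -0.30, with an adjusted p of 0.394 for each.

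Of 7 small heat shock protein genes, Cryab, which encodes alpha B-crystallin, differed most between the times (-0.65 ± 0.19, SE, limma adjusted p = 0.161). At 20 min Cryaa lay at 0.48 from self-self, with no overlap (limma adjusted p = 0.801). Hspb1, which encodes Hsp27, differed from self-self by -2.23 at 4 h and -1.84 at 20 min only through 1 of its 2 probes on the self-self array 1HG, which read 10.6 beside -0.02 for the other probe. Without that array these differences were -0.45 and -0.05. The same array set the difference of Hspe1, the mitochondrial cochaperonin, at -1.56 and -1.71, and without it these were 0.23 and 0.08. The 3 groups share 1 estimate of spread per gene, so this array also widened the SE between the times. That SE was 0.88 for Hspb1 and 0.87 for Hspe1, so the lack of a call there says little about these genes. The heat shock factors Hsf1 and Hsf2 differed by 0.31 and 0.25 between the times (adjusted p = 0.227 and 0.31), and Cdc37, the kinase cochaperone of Hsp90, by 0.24 (0.305). The main cytosolic Hsp90 gene on the array, Hsp90ab1, differed by 0.02.

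Markers of smooth muscle (6 measured), enterocytes (8), immune cells (5) and enteric neurons and glia (7) held no called gene in any comparison. The share of all features called was 0.598% between the times and lower in the other comparisons, so lists of this size would rarely hold a call. Between the times the median differences of the 4 lists were -0.08, -0.20, 0.14 and 0.01. Among the enterocyte genes, Apoa1, an apolipoprotein, differed by -0.44 with no overlap (limma adjusted p = 0.126). Fabp2, a fatty acid binding protein, differed by -0.50 (0.249) and Apoa4, another apolipoprotein, by -0.39 (0.217). Si went the other way, by 0.34 (limma adjusted p = 0.602), and 3 of the 8 enterocyte genes lay above 0. At 20 min against self-self the medians of the 4 lists were -0.04, -0.08, -0.08 and 0.05. Averaged over each list, the ratios ranged from -0.29 to 0.00, -0.35 to -0.13, -0.22 to 0.28 and -0.17 to 0.00 at 4 h, from -0.11 to 0.17, -0.30 to 0.04, -0.17 to 0.06 and -0.10 to -0.05 over the 4 arrays at 20 min, and from -0.02 to 0.44, -0.36 to -0.01, 0.00 to 0.08 and -0.20 to -0.06 on the self-self arrays. Their part in the ratios of Hspbp1 was not tested.

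The genes most like Hspbp1 in pattern were taken over the 9 arrays of HF against HG. The highest Pearson r were those of Cnga3 (0.92), Snurf (0.92), Trib3 (0.91), Slc2a5 (0.91) and Crcp (0.90), and the lowest those of Pdgfd (-0.94), Ankrd1 (-0.92) and Frmd4b (-0.91). By Spearman rho 3 of the 5 highest stayed among the 5 highest, and 0 of the 3 lowest among the 3 lowest. Since Hspbp1 separates the times, a gene that differs between them scores high whichever time moved: Slc2a5 averaged 1.65 ± 0.25 (SD, n = 5) at 4 h and -0.32 ± 0.20 (n = 4) at 20 min. Trib3 averaged 0.59 ± 0.23 and -0.06 ± 0.17. Crcp had ratios of 0.32 ± 0.13 and 0.02 ± 0.05, with 0.50 ± 0.12 on the self-self arrays. Crcp and Snurf lay lower on each array at 20 min than on every array at 4 h and every self-self array, as Hspbp1 did. Snurf read 9.78 on the self-self array 1HG, and 0.28 and 0.22 on the other self-self arrays. These genes were picked for likeness to Hspbp1, so this is no separate finding. Of all features 6.54% did not overlap between the times and 7.01% at 20 min against self-self. With 5 and 4 arrays a time, no likeness within a time is given.

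The swings of Hspa1a and Hspa1b had partners too, named after their values had been seen. The mean of the 2 genes lay between 0.64 and 1.31 on 5 arrays and between -2.04 and -0.48 on 4, so that a correlation over the 9 arrays rests in part on the gap between these sides, and it is given as a description with no test. Hspb1 gave -0.02, -0.05, -0.79, -0.53 and -1.23 at 4 h, against -0.24, -0.09, 0.11 and -0.31 at 20 min. Its lowest arrays at 4 h were those on which Hspa1a and Hspa1b were low too. It followed their mean at r = 0.91 (Spearman 0.88), with 0.97 when the 2 arrays farthest out were left aside, and r was 0.92 and 0.86 for its 2 probes. Only 5 of 4682 features reached an r as high as that of Hspb1, Hspa1a and Hspa1b included. Dnaja1, a J-domain partner of cytosolic Hsp70, had r = 0.66 (0.53; 0.56) and Hspa8 r = 0.65 (0.65; 0.63), values that 3.18% and 3.72% of all features reached. Hsp90ab1 had r = 0.55, which was -0.08 without the 2 arrays. Of the 24 genes of the 5 lists 13 had an r above 0 and 11 did not.

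The correlations of the cell-type lists with these swings differed between the lists and with the arrays used. The mean ratio of the immune list had r = -0.64 with the mean of Hspa1a and Hspa1b (Spearman -0.50, and -0.31 without the 2 farthest arrays). Of its 5 genes 0 had an r above 0, where 46.7% of all features had an r of at least 0.036. These 5 genes share the same arrays and are not independent. The enterocyte list had r = 0.20 (Spearman 0.33), and 0.80 without those arrays. For smooth muscle r was 0.18 (0.50 without them) and for enteric neurons and glia -0.34 (0.30 without them). Their part in the swings was not tested.

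In the opposite direction went Reg3b and Reg3g, which encode C-type lectins of intestinal epithelium with antibacterial action. Reg3b gave -0.55, -0.85, 1.26, 1.24 and 3.36 at 4 h, against 0.53, -2.52, -1.36 and 2.16 at 20 min, and 0.10, 0.52 and 0.11 on the self-self arrays. It was high on the arrays where Hspa1a was low, at r = -0.94 with the mean of Hspa1a and Hspa1b (Spearman -0.98, and -0.86 without the 2 farthest arrays). Reg3g, at r = -0.94, had the largest SD of all 4682 features at both times, 2.38 at 4 h and 3.51 at 20 min, and ranked 1158 on the self-self arrays.

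**Figure D5:**
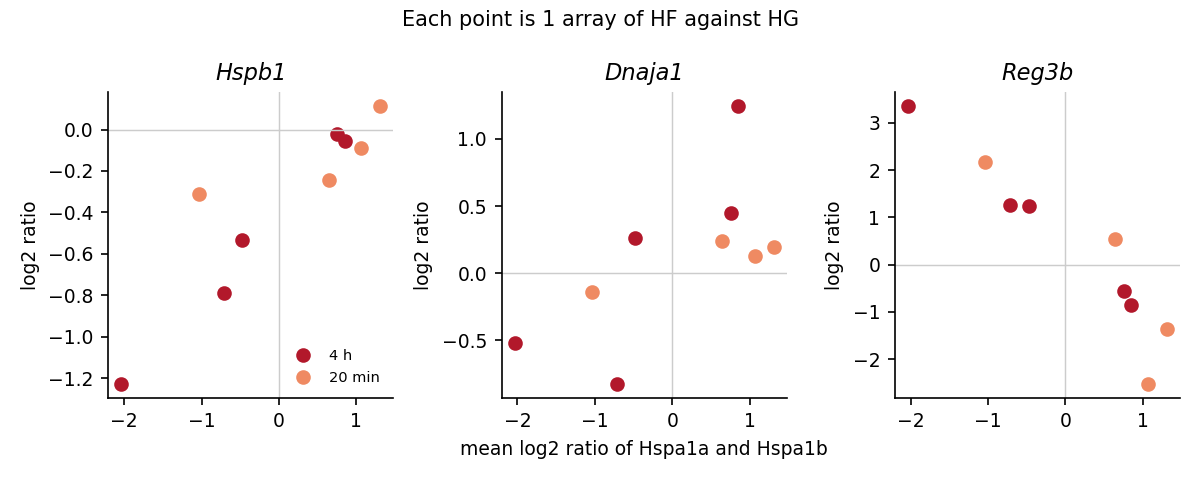
Log2 ratios of Hspb1, Dnaja1 and Reg3b (vertical) against the mean log2 ratio of Hspa1a and Hspa1b (horizontal), each point 1 of the 5 arrays at 4 h or of the 4 at 20 min. Hspb1 goes up with Hspa1a and Hspa1b (r = 0.91), Dnaja1 more loosely (r = 0.66), and Reg3b goes down (r = -0.94).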

How the data were processed

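The authors deposited 1 table of log ratios for 4952 probes on 14 arrays with 2 channels, treated here as log2 values. The scanner, background correction, normalization, base and direction of the ratio were not given in the sources used here. No spot brightness was used here, and dim probes were treated like bright ones. Symbols came from the platform annotation: 4426 probes have 1, 2 have several and 524 have none. The RefSeq gene table holds 6 of the 7 genes described, all but Hspa1b.

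Each array was centred on its median and probes of 1 symbol were averaged, which left 4682 features. The fit was made with lmFit and eBayes of limma 3.58.1 under R 4.3.3 and took in 12 arrays in 3 groups (5 at 4 h, 4 at 20 min, 3 self-self) with 9 residual and 2.84 prior degrees of freedom, no block, and a call at a Benjamini-Hochberg adjusted p below 0.05. The self-self arrays carry each probe's dye effect. The fit was tested on simulated data with normal noise of equal spread on every array. The real arrays differed in spread (SD 1.39 on the self-self array 1HG), which that test did not cover. The genes, lists and tests were chosen with earlier results of these data known. All genes of the rule are named, up to 4 per list by p, and the 5 most and 3 least like Hspbp1 by Pearson r; other names were chosen after their values had been seen.

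Alternatives were the values as deposited, quantile normalization, scaling, probes kept apart, array weights, fewer groups in the fit, 2 treatments of array 6, a replicate block, and leaving out each array.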

Additional observations from a re-analysis of the deposited data

Results flagged for a closer look

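The ratio of Hspbp1 differed between the times, by 1.17 (4 h minus 20 min). This is the difference it was chosen for and is no separate finding. Of 14 sets of arrays (7 genes at 2 times) 1 held an array far from the others by Dixon's criterion, that of Hspa9 at 20 min, where replicate 1 stood at 0.189. Chance flags about 1 set in 20.

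Array 6, used in no comparison, gave ratios outside the size seen on the self-self arrays for all 7 genes: -1.26 for Hspa13, -0.947 for Hspa8, -0.774 for Hspa1b, -0.689 for Hspbp1, -0.579 for Hspa1a, -0.432 for Hspa4 and -0.132 for Hspa9. All 7 are negative. The SD over all probes of that array was 0.82. No gene of the 7 did so on the primer array.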

How the results depend on the processing

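The difference of Hspbp1 ranged over all alternatives from -1.93 to -1.26 at 20 min, from 1.05 to 1.74 between the times and from -0.31 to -0.10 at 4 h. The ends -1.93 and 1.74 came from quantile normalization. The 2 features called at 20 min, Hspbp1 the 1 of this family, became 0 and 0 with arrays scaled to 1 spread, with only the compared groups in the fit, and with array 6 averaged into array 2 either as deposited or with its sign turned. Leaving out 1 array gave 0 to 4 features and 0 to 1 family genes, and Hspbp1 was the family gene lost when 3HG or any array at 20 min but replicate 3 was absent. At 4 h the 3 features became 0 with array 6 averaged in as deposited, and 2 to 5 with 1 array left out, with 0 family genes throughout. Between the times the 28 features became 16 with scaling, 0 (and 0 family genes) with array 6 as deposited, 18 with its sign turned, and 4 to 29 with 1 array left out, and the 1 family gene was lost without 20 min replicate 2 or 4. By Spearman rho 3 of the 5 genes most like Hspbp1 stayed and 0 of the 3 least like it. The cause of these shifts was not tested.

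None of the other 6 genes was called in 294 values under alternatives (lowest adjusted p 0.23), of which 8 changed sign. For Hspa1a these were -0.17 at 20 min without 20 min replicate 3 (range with 1 array left out -0.17 to 0.70) and 0.038 at 4 h without 4 h replicate 5 (-0.64 to 0.038). For Hspa4 at 20 min they were 0.0042 without 20 min replicate 4 and 0.0032 without the self-self array 3HF (range -0.062 to 0.0042). Between the times they were, with array 6 turned, 0.074 for Hspa13 and 0.0029 for Hspa8, and for Hspa13 0.057 without 4 h replicate 3 and 0.016 without 20 min replicate 3 (range -0.088 to 0.057). Hspe1, outside the family, turned to 0.076 at 20 min and 0.23 at 4 h without the self-self array 1HG (ranges -2.64 to 0.076 and -2.49 to 0.23). Replicate numbers did not pair the times (r of deviations -0.07, 0.16, -0.03 and -0.02 for numbers 1 to 4). With a replicate block 22 features and 1 family gene were called between the times, and Hspbp1 differed by 1.23.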

Other observations

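Other genes that followed the mean of Hspa1a and Hspa1b over the 9 arrays were taken by the same rule as for Hspbp1, applied after the values had been seen. Eno3, the muscle form of enolase, had r = 0.91 (Spearman 0.80), Dpp7, a lysosomal dipeptidase, 0.90 (0.97), the chemokine gene Cxcl3 0.90 (0.87) and Prp15 0.87 (0.85). Besides Reg3b and Reg3g, Cycs, which encodes cytochrome c, went the opposite way (r = -0.92, Spearman -0.92). The changes of these genes were much smaller than that of Hspa1a: the SD over the 5 arrays at 4 h was 0.30 for Eno3, 0.30 for Dpp7, 0.21 for Cxcl3, 0.16 for Prp15 and 0.23 for Cycs. On array 6 Reg3b gave 1.36 and Reg3g 0.78, against -0.85 and -1.36 on array 2 of the same pair, and the mean of Hspa1a and Hspa1b gave -0.68, against 0.85, so all of these changed sign. Hspb1 gave 0.10 on array 6, against -0.05 on array 2. Both are close in size to its ratios on the self-self arrays 3HG and 3HF (-0.06 and -0.09), so nothing is read from their signs.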
